A study of Mus musculus with 9 samples.

Results

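The Dlx homeobox factors, the zinc finger factors Sp8 and Sp9, and the genes that make and package GABA were followed across sorted cells of the adult mouse brain. The set was chosen by name, with earlier results of these data known: Dlx1, Dlx2, Dlx5, Dlx6, Gad1, Gad2, Slc32a1, Sp8 and Sp9. Of these 9 genes, 7 had a probe of that name, and these were measured by 9 of the 41174 non-control probes of the array, 3 of them for Gad1. No probe carried the name Dlx6 or Sp9. A probe was kept if its spots were well above background on 3 or more of the 9 arrays, which 7 of the 9 probes met. That put 5 genes (Dlx1, Dlx5, Gad1, Gad2 and Slc32a1) among the 25064 genes tested and left out Dlx2 and Sp8.

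RNA was compared between 3 groups of fluorescence-sorted cells, each on 3 one-colour Agilent arrays (replicates A, B and C). The first group was GFP-positive cells of the subventricular zone (SVZ), a neurogenic region along the lateral ventricle, from Sox2-GFP mice, in which the Sox2 promoter drives GFP (Sox2 is a stem cell transcription factor). The second was GFP-positive cells of the hippocampus from Sox2-GFP mice. The third was DsRed-positive cells of the hippocampus from DCX-DsRed mice, in which the promoter of Dcx, a microtubule protein of newborn neurons, drives DsRed. All mice were 6 to 8 weeks old per the labels' protocols, tissue of 10 dissections was pooled for an experiment, and RNA of 1000 cells was amplified and labelled with Cy3. A reporter marks any cell in which its promoter is active or its protein persists, so a group can hold more than 1 cell type. Whether replicates came from separate pools of mice is not stated in the labels, so the p-values measure only sample-to-sample spread, part or all of which may be technical.

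Dlx1 and Dlx2, and Dlx5 and Dlx6, are paired homeobox genes that act in sequence in the ventral forebrain, where they direct progenitors to the GABA neuron fate. Gad1 and Gad2 encode the glutamate decarboxylases GAD67 and GAD65, which make GABA, and Slc32a1 encodes VGAT, which loads it into synaptic vesicles. In the adult brain the SVZ sends newborn neurons to the olfactory bulb, most of which become GABA interneurons that pass through a stage with Dlx factors and Sp8, whereas the newborn granule neurons of the hippocampus become glutamatergic.

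Promoter windows are shown for Dlx1, one of the Dlx genes tested, for Gad1, the tested member with the widest range, and for Slc32a1, the tested member that varied least. RefSeq (build GRCm38.p6) gave a window of 250 bases before to 50 bases after the start for 7 of the 9 genes, in 9 windows. Capitals mark GGGCGG or its reverse complement CCGCCC, the core of the GC box.

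Dlx1 promoter, chr2:71529195-71529494, plus strand: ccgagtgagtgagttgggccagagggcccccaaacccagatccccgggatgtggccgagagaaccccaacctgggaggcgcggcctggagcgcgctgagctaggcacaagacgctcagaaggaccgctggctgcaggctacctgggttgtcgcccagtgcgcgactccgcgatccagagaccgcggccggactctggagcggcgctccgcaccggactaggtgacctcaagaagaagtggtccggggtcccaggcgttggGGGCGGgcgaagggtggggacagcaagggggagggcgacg
Gad1 promoter, chr2:70561879-70562178, plus strand: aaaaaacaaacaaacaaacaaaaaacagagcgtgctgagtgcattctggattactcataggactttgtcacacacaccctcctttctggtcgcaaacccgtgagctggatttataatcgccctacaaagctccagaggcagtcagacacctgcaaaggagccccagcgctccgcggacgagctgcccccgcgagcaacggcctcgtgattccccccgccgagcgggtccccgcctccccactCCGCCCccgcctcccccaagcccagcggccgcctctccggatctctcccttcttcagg
Slc32a1 promoter, chr2:158610508-158610807, plus strand: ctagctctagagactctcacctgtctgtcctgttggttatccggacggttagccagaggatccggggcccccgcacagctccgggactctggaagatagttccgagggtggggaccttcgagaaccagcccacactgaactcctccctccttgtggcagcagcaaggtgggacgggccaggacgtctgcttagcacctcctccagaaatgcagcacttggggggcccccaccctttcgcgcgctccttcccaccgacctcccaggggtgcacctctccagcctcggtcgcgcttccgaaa

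The windows of Dlx1, Gad1 and Slc32a1 were 69.3%, 60.0% and 63.3% G and C. GGGCGG was found on either strand in 5 of the 9 windows (1 each of Dlx1, Dlx2, Gad1, Sp8 and Sp9), and 35.7% of 32851 mouse promoter windows of the same length held it. TAATTA, a homeodomain core that reads the same on both strands, was found in 1 of the 9 windows, 1 of 3 windows of Sp8, against 5.3% of all windows. The 2 motifs do not overlap in sequence. A match says only that these letters are in the window.

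Values below are log2 signals minus the 75th percentile of the same array, so that 0 is that percentile and a step of 1 doubles the signal. They can be compared between arrays for 1 probe, and not between probes. Between 80.5% and 88.6% of spots per array were well above background, and the correlation of arrays within a group was 0.821 to 0.840 in SVZ Sox2-GFP, 0.784 to 0.919 in hippocampus Sox2-GFP and 0.869 to 0.918 in DCX-DsRed cells. Replicate C of hippocampus Sox2-GFP cells correlated least with the other groups, at 0.705 to 0.729 with the SVZ and DCX-DsRed arrays. SVZ replicate C differed from SVZ replicates A and B at several members and at Dcx, and results are given with and without each of these arrays. Dcx, by replicate in the order A, B and C, stood at 2.57, 3.05 and -2.36 in SVZ, against -0.20, -0.77 and -2.88 in hippocampus Sox2-GFP and -1.29, -0.78 and 1.28 in DCX-DsRed replicates. Sox2 stood at 0.92, 2.07 and 2.28 in SVZ, 0.94, 0.92 and -0.95 in hippocampus Sox2-GFP and 1.30, 1.71 and 1.70 in DCX-DsRed replicates. These Dcx values are from the brightest of 3 probes, on which the groups overlapped. Another Dcx probe read -2.81, -0.69 and -4.11 in SVZ, -3.53, -3.51 and -5.81 in hippocampus Sox2-GFP and -5.26, -4.85 and -5.39 in DCX-DsRed replicates, with every SVZ array above every DCX-DsRed array. The last Dcx probe read -0.17, 1.69 and -8.19 in SVZ, -3.77, -5.82 and -8.16 in hippocampus Sox2-GFP and -2.98, -4.64 and -2.77 in DCX-DsRed replicates. On it SVZ replicate C was below every DCX-DsRed array. It was not well above background there or on hippocampus Sox2-GFP replicates B and C. At Sox2 the SVZ arrays overlapped with both hippocampal groups.

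In the means, each of the 7 measured members was highest in SVZ Sox2-GFP cells. No member passed the test at an adjusted p of 0.05 in any comparison (limma, Benjamini-Hochberg adjustment over 25064 genes). Gad1, Sp8 and Dlx5 were above every hippocampal array on SVZ replicates A and B and within the range of the hippocampal arrays on SVZ replicate C. Dlx1 had the same pattern, with SVZ replicate B read from a flagged spot. Slc32a1 overlapped between all groups.

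**Figure D1:**
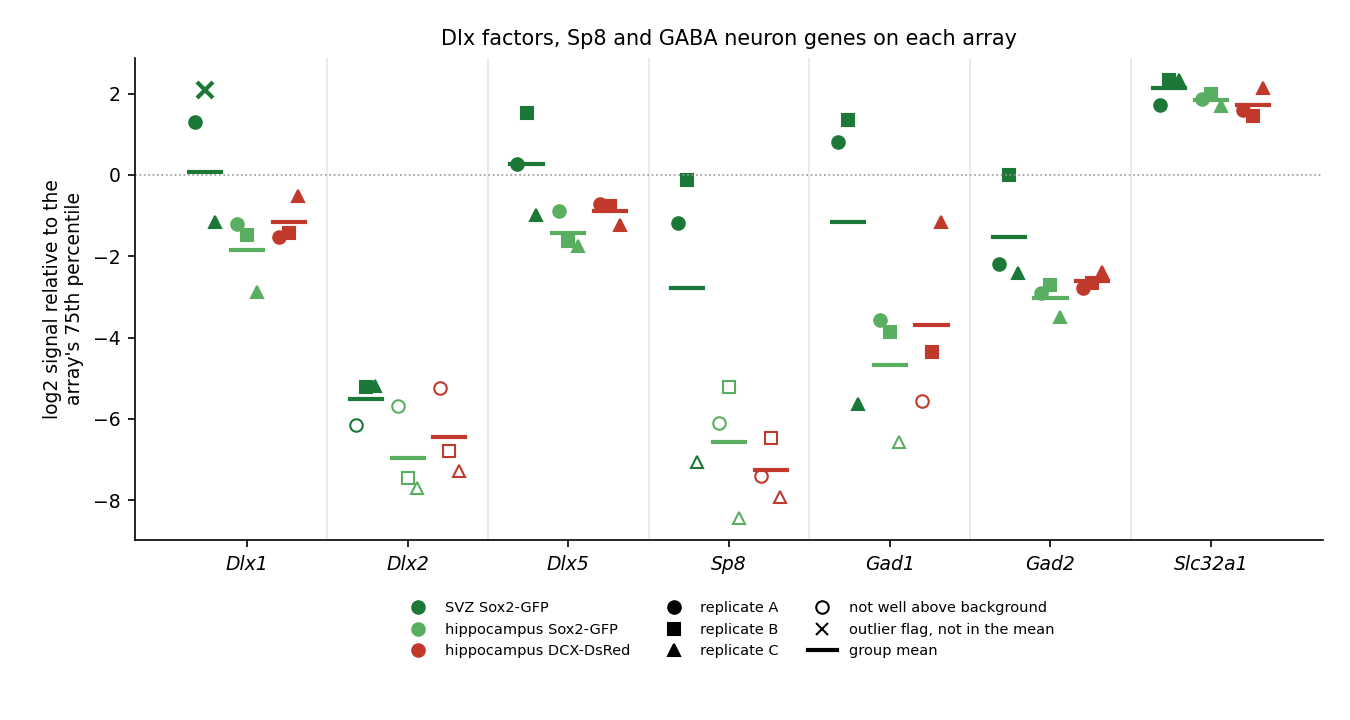
Log2 signal minus the 75th percentile of its array (vertical axis) for the 7 measured members on the 3 arrays of each group, in the order SVZ Sox2-GFP, hippocampus Sox2-GFP and hippocampus DCX-DsRed from left to right for each gene. Filled symbols were well above background, open symbols were not, the cross is an outlier-flagged spot left out of the mean, and bars are group means; Gad1 is shown by 1 of its 3 probes, and SVZ replicates A and B lie above the other arrays for Dlx5, Sp8 and Gad1.

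Dlx1 stood at 1.31 on SVZ replicate A and -1.15 on SVZ replicate C, against -1.20, -1.47 and -2.89 in hippocampus Sox2-GFP and -1.53, -1.43 and -0.52 in DCX-DsRed replicates. The spot of SVZ replicate B carried an outlier flag and was left out of the test, and it read 2.09. SVZ replicate C lay only just above the highest hippocampus Sox2-GFP array and within the DCX-DsRed arrays. The means were 0.08 ± 1.74 in SVZ (SD, n = 2), -1.85 ± 0.91 in hippocampus Sox2-GFP and -1.16 ± 0.56 in DCX-DsRed cells (SD, n = 3 each).

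Over the 8 arrays with a value, Dlx1 differed between SVZ and hippocampus Sox2-GFP cells by 1.93 (SE 0.84, 95% interval -0.03 to 3.90, adjusted p = 0.468). Between SVZ Sox2-GFP and DCX-DsRed cells it differed by 1.24 (SE 0.84, adjusted p = 0.604). Neither difference passed the test. With the flagged spot kept, the differences were 2.60 (adjusted p = 0.320) and 1.91 (adjusted p = 0.374).

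Dlx5 stood at 0.26, 1.51 and -0.99 on the SVZ arrays A, B and C, against -0.88, -1.62 and -1.75 in hippocampus Sox2-GFP and -0.72, -0.75 and -1.22 in DCX-DsRed replicates. SVZ replicates A and B were above all 6 hippocampal arrays, and SVZ replicate C was among them. The difference was 1.68 between SVZ and hippocampus Sox2-GFP cells (SE 0.61, 95% interval 0.29 to 3.07, unadjusted p = 0.0236, adjusted p = 0.379) and 1.16 between SVZ Sox2-GFP and DCX-DsRed cells (SE 0.61, adjusted p = 0.461). Dlx5 and Dlx1 had the same order of groups in their means, and no difference between neighbouring groups passed the test.

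Dlx2 stood at -6.15, -5.22 and -5.18 on the SVZ arrays A, B and C, against -5.69, -7.46 and -7.70 in hippocampus Sox2-GFP and -5.23, -6.80 and -7.28 in DCX-DsRed replicates. SVZ replicates B and C were the only arrays on which its probe was well above background. With no filter on dim probes Dlx2 differed by 1.43 (adjusted p = 0.537) between SVZ and hippocampus Sox2-GFP cells and by 0.92 (adjusted p = 0.655) between SVZ Sox2-GFP and DCX-DsRed cells. These differences rest on signals not well above background on all hippocampal arrays and on SVZ replicate A.

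Sp8, a zinc finger factor of olfactory bulb interneurons, stood at -1.18, -0.11 and -7.05 on the SVZ arrays A, B and C. It read -6.10, -5.21 and -8.44 in hippocampus Sox2-GFP and -7.39, -6.48 and -7.91 in DCX-DsRed replicates. Its probe was well above background on SVZ replicates A and B and on no other array. SVZ replicate C lay within the hippocampal values, below the background limit.

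With no filter on dim probes Sp8 differed by 3.80 (adjusted p = 0.488) between SVZ and hippocampus Sox2-GFP cells and by 4.48 (adjusted p = 0.303) between SVZ Sox2-GFP and DCX-DsRed cells, against hippocampal signals not well above background. With no filter and without SVZ replicate C, a setting chosen after the values were seen, they were 5.93 (SE 0.96, adjusted p = 0.0751) and 6.61 (SE 0.96, adjusted p = 0.0487). In that setting 0.427% of 27664 genes were called between SVZ Sox2-GFP and DCX-DsRed cells, and Sp8 was the only member among them.

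Gad1 had the widest range of the members. On the probe with the highest mean signal it stood at 0.81, 1.35 and -5.64 on the SVZ arrays A, B and C, against -3.57, -3.86 and -6.58 in hippocampus Sox2-GFP and -5.57, -4.34 and -1.16 in DCX-DsRed replicates. SVZ replicates A and B were above every other array, SVZ replicate C was near the lowest, and DCX-DsRed replicate C was above the other hippocampal arrays. The probe was not well above background on hippocampus Sox2-GFP replicate C and DCX-DsRed replicate A.

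The means of this Gad1 probe were -1.16 ± 3.89 in SVZ, -4.67 ± 1.66 in hippocampus Sox2-GFP and -3.69 ± 2.27 in DCX-DsRed cells (SD, n = 3 each). The difference was 3.51 (SE 1.95, 95% interval -0.96 to 7.98, adjusted p = 0.568) between SVZ and hippocampus Sox2-GFP cells and 2.53 (SE 1.95, adjusted p = 0.656) between SVZ Sox2-GFP and DCX-DsRed cells. Neither difference was larger than the spread between the SVZ replicates.

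A second Gad1 probe stood at 0.79, 1.47 and -6.00 on the SVZ arrays A, B and C, against -3.94, -4.16 and -7.14 in hippocampus Sox2-GFP and -5.53, -4.66 and -1.30 in DCX-DsRed replicates. It was not well above background on SVZ replicate C, hippocampus Sox2-GFP replicate C and DCX-DsRed replicate A. The last Gad1 probe stood at -0.15, -0.66 and -8.17 on SVZ replicates, against -5.25, -6.75 and -7.28 in hippocampus Sox2-GFP and -5.78, -7.69 and -3.65 in DCX-DsRed replicates. All 3 probes had SVZ replicates A and B as the highest arrays and DCX-DsRed replicate C next, and SVZ replicate C lay low on each, below every hippocampal array on the last probe. Tested probe by probe, these probes differed by 3.83 and 3.43 between SVZ and hippocampus Sox2-GFP cells, with adjusted p values of 0.555 and 0.595. The last was well above background on none of the hippocampus Sox2-GFP arrays and not on SVZ replicate C, so its size is not a measured level difference.

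Gad2 stood at -2.18, -0.01 and -2.41 on the SVZ arrays A, B and C, against -2.89, -2.71 and -3.49 in hippocampus Sox2-GFP and -2.79, -2.65 and -2.39 in DCX-DsRed replicates. SVZ replicate B was far above the rest, SVZ replicates A and C were just above the hippocampus Sox2-GFP arrays, and SVZ replicate C was level with the highest DCX-DsRed array. The difference was 1.50 (SE 0.62, 95% interval 0.08 to 2.92, unadjusted p = 0.0406, adjusted p = 0.437) between SVZ and hippocampus Sox2-GFP cells and 1.08 (SE 0.62, adjusted p = 0.513) between SVZ Sox2-GFP and DCX-DsRed cells.

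A clone probe named 6330404F12Rik, a synonym of Gad2 in the RefSeq gene table, is given apart because it does not carry the member's name. It stood at 1.50, 2.04 and -0.85 on the SVZ arrays A, B and C, against -2.95, -3.53 and -4.27 in hippocampus Sox2-GFP and -1.56, -0.09 and -4.18 in DCX-DsRed replicates. All SVZ arrays were above all hippocampus Sox2-GFP arrays, and SVZ replicate C was within the DCX-DsRed arrays. In the probe-level test it differed by 4.48 (SE 1.11, adjusted p = 0.180) and by 2.84 (SE 1.11, adjusted p = 0.307) in the same 2 comparisons.

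Slc32a1 stood at 1.71, 2.34 and 2.35 on the SVZ arrays A, B and C, against 1.87, 1.99 and 1.69 in hippocampus Sox2-GFP and 1.59, 1.46 and 2.13 in DCX-DsRed replicates. The groups overlapped, and no array stood apart. The difference was 0.28 between SVZ and hippocampus Sox2-GFP cells (SE 0.33, 95% interval -0.48 to 1.04, adjusted p = 0.796) and 0.40 between SVZ Sox2-GFP and DCX-DsRed cells (SE 0.33, 95% interval -0.36 to 1.17, adjusted p = 0.686). These intervals limit any difference of Slc32a1 more closely than those of the other tested members do.

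Within the hippocampus, comparing Sox2-GFP with DCX-DsRed cells, 4 of the 5 tested members were lower in the Sox2-GFP cells and none passed. The differences were -0.69 for Dlx1 (SE 0.75, adjusted p = 0.697), -0.52 for Dlx5 (SE 0.61, adjusted p = 0.718), -0.98 for Gad1 (SE 1.95, adjusted p = 0.848), -0.42 for Gad2 (SE 0.62, adjusted p = 0.782) and 0.12 for Slc32a1 (SE 0.33, adjusted p = 0.894). The arrays of the groups overlapped for each of them. Since RNA of pooled sorted cells was measured, fewer cells with a transcript and less of it per cell cannot be told apart.

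Of all genes tested, 0.395% were called between SVZ and hippocampus Sox2-GFP cells, 1.56% between SVZ Sox2-GFP and DCX-DsRed cells and 3.18% between the hippocampal groups, against 0 of 5 members in each. At an unadjusted p under 0.05 the members counted 2, 0 and 0 of 5, and 10.8%, 13.7% and 16.9% of all genes passed. The median difference of the members was 1.68, 1.16 and -0.52 in these comparisons, and that of all genes 0.08, -0.02 and -0.08. The first 2 comparisons share the SVZ arrays and each pair shares a group, so their values are not independent.

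Of the 5 tested members, 2 (Dlx1, on its 2 SVZ values, and Gad2) were higher on each SVZ array than on each hippocampus Sox2-GFP array, and 8.98% of all genes were. None was higher on each SVZ array than on each DCX-DsRed array, where 10.8% of all genes were. Without SVZ replicate C, 4 of 5 members (all but Slc32a1; Dlx1 on SVZ replicate A alone) were higher on the remaining SVZ arrays than on the arrays of each hippocampal group, and 15.9% of all genes were in either comparison.

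Without SVZ replicate C, the SVZ side of Dlx1 was replicate A alone, which the fit assumes to vary like the other groups. The differences between SVZ and hippocampus Sox2-GFP cells were 3.16 for Dlx1 (SE 0.81, adjusted p = 0.269), 2.30 for Dlx5 (SE 0.50, adjusted p = 0.165), 5.75 for Gad1 (SE 1.39, adjusted p = 0.215), 1.94 for Gad2 (SE 0.64, adjusted p = 0.369) and 0.17 for Slc32a1 (adjusted p = 0.911). Against DCX-DsRed cells they were 2.47 for Dlx1 (adjusted p = 0.301), 1.78 for Dlx5 (adjusted p = 0.215), 4.77 for Gad1 (adjusted p = 0.227), 1.51 for Gad2 (adjusted p = 0.419) and 0.30 for Slc32a1 (adjusted p = 0.891). No member was called, against 0.323% and 0.511% of all genes. At an unadjusted p under 0.05, Dlx5, Gad1 and Gad2 passed in each comparison and Slc32a1 in neither, against 10.1% and 11.8% of all genes. Dlx1 was left out of this count because its SVZ side was 1 array. SVZ replicate C was singled out after its values were seen, in part for its low values at several members. Leaving it out thus raises those members, and the shares of all genes are not a like yardstick for the counts without it. Leaving out each array in turn was planned.

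Leaving out some of the other arrays lowered the differences, and fits that raised a difference are not listed in this paragraph. Without hippocampus Sox2-GFP replicate C, the differences between SVZ and hippocampus Sox2-GFP cells were 1.41 for Dlx1, 1.51 for Dlx5, 2.56 for Gad1, 1.27 for Gad2 and 0.20 for Slc32a1 (adjusted p from 0.603 to 0.946). Between the hippocampal groups (Sox2-GFP minus DCX-DsRed) they were then -0.17 for Dlx1, -0.35 for Dlx5, -0.022 for Gad1 and -0.19 for Gad2. Without SVZ replicate B, SVZ cells differed from hippocampus Sox2-GFP cells by 1.05 for Dlx5, 2.26 for Gad1 and 0.74 for Gad2, and from DCX-DsRed cells by 0.53, 1.28 and 0.31. Without SVZ replicate A, Dlx1 differed by 0.70 and 0.01 in these comparisons, on SVZ replicate C alone. The sign held in each of these, and the sizes depended on which array was left out.

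**Figure D2:**
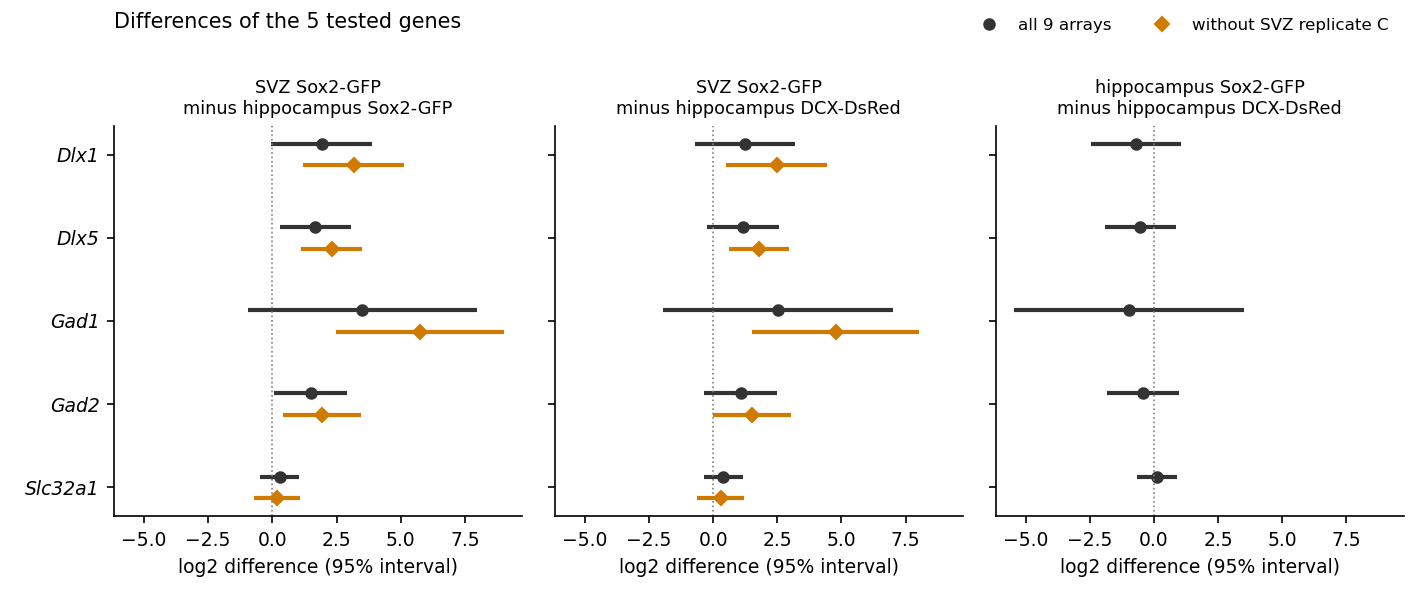
Log2 difference (horizontal axis) of the 5 tested members in the 3 comparisons, with 95% intervals from limma, from all 9 arrays (circles) and without SVZ replicate C (diamonds). Gad1 has the widest intervals (-0.96 to 7.98 between SVZ and hippocampus Sox2-GFP cells) and Slc32a1 the narrowest among all-array intervals (-0.48 to 1.04).

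Slide was read from the file headers. SVZ replicate A shared slide 1 with DCX-DsRed replicates A and B, hippocampus Sox2-GFP replicates A and B were on slide 2, and the rest were on slide 3. On slide 1, SVZ replicate A exceeded the DCX-DsRed mean by 2.79 for Dlx1, 0.99 for Dlx5, 5.77 for Gad1, 0.54 for Gad2 and 0.18 for Slc32a1. On slide 3, the SVZ mean of replicates B and C differed from DCX-DsRed replicate C by 1.48 for Dlx5, -0.98 for Gad1, 1.18 for Gad2 and 0.21 for Slc32a1. For Dlx1 the difference there was -0.63 with SVZ replicate C alone and 0.99 with the flagged spot of replicate B kept. Gad1 thus had opposite signs on the 2 slides, and the sign of Dlx1 on slide 3 rested on the flagged spot. Against hippocampus Sox2-GFP replicate C on slide 3, the SVZ mean was higher by 2.01 for Dlx5, 4.43 for Gad1, 2.28 for Gad2 and 0.65 for Slc32a1, and Dlx1 by 1.74 with SVZ replicate C alone and 3.35 with the flagged spot kept. With slide as a block, no member was called, and the comparisons with hippocampus Sox2-GFP cells then rest on replicate C of that group alone.

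Noncoding transcripts of the Dlx5 and Dlx6 locus were measured by separate probes. Dlx6os1, a long noncoding RNA antisense to Dlx6, stood at 2.63, 3.13 and -4.44 on the SVZ arrays A, B and C, against -2.98, -0.90 and -5.46 in hippocampus Sox2-GFP and -7.35, -5.04 and -0.25 in DCX-DsRed replicates. A second Dlx6os1 probe stood at -1.28, 0.66 and -3.67 on SVZ replicates, against -4.63, -3.97 and -5.42 in hippocampus Sox2-GFP and -4.23, -3.85 and -1.72 in DCX-DsRed replicates. On both probes SVZ replicates A and B were the highest arrays and DCX-DsRed replicate C was next. The differences of the first were 3.55 (SE 2.44, adjusted p = 0.641) between SVZ and hippocampus Sox2-GFP cells and 4.65 (SE 2.44, adjusted p = 0.462) between SVZ Sox2-GFP and DCX-DsRed cells. The first was not well above background on DCX-DsRed replicate A. In the probe-level test the second Dlx6os1 probe differed by 3.25 (adjusted p = 0.342) and 1.83 (adjusted p = 0.541) in these comparisons. A probe named Dlx6as stood at 3.39 and 1.88 on SVZ replicates B and C (2.0 on the flagged spot of replicate A), against 1.69, 1.43 and 1.09 in hippocampus Sox2-GFP and 1.81, 1.44 and 1.53 in DCX-DsRed replicates. It was highest on the SVZ arrays, by a small margin on replicate C, and differed by 1.23 (SE 0.52, adjusted p = 0.468) and 1.04 (SE 0.52, adjusted p = 0.456) in the same comparisons.

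**Figure D3:**
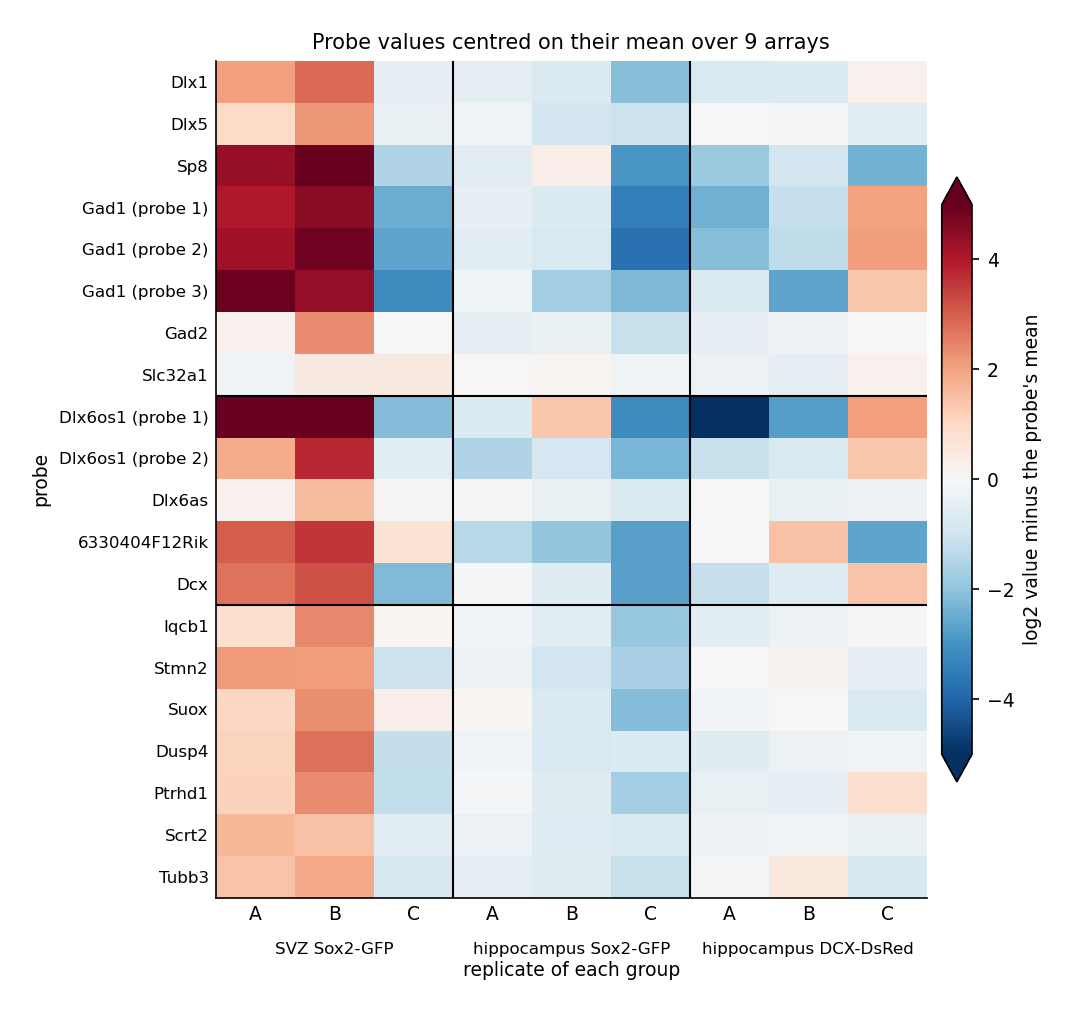
Log2 value of each probe minus its mean over the 9 arrays (colour, clipped at 5 either way), with SVZ Sox2-GFP arrays at the left, hippocampus Sox2-GFP in the middle and DCX-DsRed at the right; flagged spots (Dlx1 on SVZ replicate B, Dlx6as on SVZ replicate A) are drawn at their measured value. The top block holds member probes and the middle block Dlx6os1, Dlx6as, 6330404F12Rik and Dcx. The bottom block holds 7 of the 8 genes nearest to the mean Dlx1 and Dlx5 profile, members and clone, model or accession names left out. SVZ replicates A and B are high in most rows, and Slc32a1 is nearly flat.

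The mean centred profile of Dlx1 and Dlx5, with the flagged spot kept, was 1.51, 2.52 and -0.36 in SVZ, -0.32, -0.82 and -1.60 in hippocampus Sox2-GFP and -0.40, -0.37 and -0.15 in DCX-DsRed replicates A, B and C. The 8 genes nearest to it were taken by root mean square difference over the 9 arrays, with members and clone, model or accession names left out. Among them were Iqcb1 (0.323), Stmn2 (0.431), Suox (0.444), Dusp4 (0.457), Ptrhd1 (0.468), Scrt2 (0.475) and Tubb3 (0.491). Stmn2 is a microtubule regulator of growing neurons, Tubb3 is neuronal tubulin, Scrt2 is a zinc finger factor of neurons, Dusp4 is a phosphatase of MAP kinases and Suox is sulfite oxidase. Ranked among all 25064 genes, with none left out, Gad2 lay at 0.515 (rank 17), Slc32a1 at 1.1 (rank 3632) and Gad1 at 1.74 (rank 19116). A wider range counts as distance in this measure. The arrays are the only points, so these ranks are descriptive.

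Of 21 other transcription factors and noncoding RNAs of the ventral forebrain listed, 17 were tested, and 0 were called in any comparison, with median differences of 0.18, 0.22 and 0.04 (SVZ minus hippocampus Sox2-GFP, SVZ Sox2-GFP minus DCX-DsRed, and Sox2-GFP minus DCX-DsRed within the hippocampus). Npas1, a factor of GABA neuron development, had the smallest p in the first (-1.50, adjusted p = 0.312). Etv1 is a factor of olfactory bulb interneurons, and stood at 0.46, 1.05 and -5.35 in SVZ, -2.66, -2.86 and -3.26 in hippocampus Sox2-GFP and 0.77, 0.65 and 1.57 in DCX-DsRed replicates. Its levels were lower in all hippocampus Sox2-GFP arrays than in DCX-DsRed arrays, and SVZ replicate C was below them all. Over all 9 arrays it had the smallest p of the list within the hippocampus (-3.93, adjusted p = 0.223). Without SVZ replicate C, Etv1 differed by 3.68 (SE 0.44, adjusted p = 0.0311) between SVZ and hippocampus Sox2-GFP cells and by -3.93 (adjusted p = 0.00611) between hippocampus Sox2-GFP cells and DCX-DsRed cells. That was 1 of 9 fits with an array left out in which it was called, and over these fits the differences were 0.48 to 3.68 (adjusted p up to 0.937) and -4.10 to -3.64 (adjusted p up to 0.399).

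Of the 10 genes of GABA uptake, breakdown and chloride balance, all tested, 1 was called lower in SVZ than in hippocampus Sox2-GFP cells. In hippocampus Sox2-GFP relative to DCX-DsRed cells 1 was called higher. Between SVZ Sox2-GFP and DCX-DsRed cells 0 were called, and Slc12a2, a chloride importer, had the smallest p (-3.13, adjusted p = 0.0850). The 1 gene was in both cases Slc6a12, which encodes the betaine and GABA transporter BGT1. It stood at -1.98, -1.91 and -2.63 in SVZ, 0.41, 0.15 and 0.17 in hippocampus Sox2-GFP and -1.71, -1.55 and -1.98 in DCX-DsRed replicates. No hippocampus Sox2-GFP array overlapped with any other. It fell by 2.42 in SVZ (SE 0.32, adjusted p = 0.0236; 0.0384 to 0.112 when an array was left out, called in 2 of 9 such fits) and rose by 1.99 in hippocampus Sox2-GFP relative to DCX-DsRed cells (SE 0.32, adjusted p = 0.0175; 0.0186 to 0.0690, called in 4 of 9). The summed level of choroid plexus markers was 1.48 to 2.26 in SVZ Sox2-GFP, 46.7 to 151 in hippocampus Sox2-GFP and 1.37 to 1.91 in DCX-DsRed cells (sum of linear signals, each relative to the array's 75th percentile), and its part in the Slc6a12 values was not tested.

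Of 18 listed GABA receptor and scaffold genes, 17 were tested and 0 were called in any comparison. The smallest p was for Gabrg3 (-1.09, adjusted p = 0.271) between SVZ and hippocampus Sox2-GFP cells, Gabrg1 (2.41, adjusted p = 0.242) between SVZ Sox2-GFP and DCX-DsRed cells and Gabrg3 (1.40, adjusted p = 0.0595) between the hippocampal groups. Both encode gamma subunits of the GABA-A receptor. The median differences were 0.36, 0.31 and -0.07.

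Of 16 interneuron subtype markers, 14 were tested and 0 were called, and of 14 striatal projection neuron markers, 13 were tested and 0 were called. Calb2, the calcium-binding protein calretinin, was the interneuron marker with the smallest p between SVZ Sox2-GFP and DCX-DsRed cells, where it averaged -3.88 ± 0.29 in SVZ and -0.94 ± 0.75 in DCX-DsRed cells (difference -2.95, adjusted p = 0.0671). In hippocampus Sox2-GFP cells it averaged -3.51 ± 1.17, a difference of -2.58 from DCX-DsRed cells (adjusted p = 0.0706). Pde10a, a phosphodiesterase of striatal projection neurons, had the smallest p of its list against both hippocampal groups (-2.20, adjusted p = 0.398, and -2.14, adjusted p = 0.298). Of 14 granule neuron and glutamatergic lineage genes, 12 were tested and 0 were called, and Prox1, a homeobox factor of granule neurons, differed by -2.17 (adjusted p = 0.0566) between the hippocampal groups.

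The 15 immature neuron markers, all tested, were compared with the members array by array. Their mean centred level was 1.34, 1.75 and -0.92 in SVZ, -0.36, -0.28 and -1.80 in hippocampus Sox2-GFP and -0.54, 0.24 and 0.56 in DCX-DsRed replicates. That of the 5 tested members was 1.40, 2.48 and -0.56 in SVZ, -0.31, -0.51 and -1.58 in hippocampus Sox2-GFP and -0.78, -0.52 and 0.39 in DCX-DsRed replicates. SVZ replicates A and B were highest, hippocampus Sox2-GFP replicate C was lowest and SVZ replicate C was low in both. Hippocampus Sox2-GFP replicate C was also the lowest array for mature neuron, interneuron subtype, astrocyte and oligodendrocyte markers. The summed level of the immature neuron markers was 35.6 to 83.9 in SVZ, 15.3 to 26.0 in hippocampus Sox2-GFP and 49.4 to 68.4 in DCX-DsRed cells. Its part in the member values was not tested.

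Of these markers, 0 were called between SVZ and hippocampus Sox2-GFP cells (median difference 1.76), 1 between SVZ Sox2-GFP and DCX-DsRed cells (0.97) and 1 between the hippocampal groups (-0.80). The called genes were Dclk1, a relative of doublecortin, which averaged 2.75 ± 0.52 in SVZ and -0.26 ± 0.54 in DCX-DsRed cells (difference 3.0, adjusted p = 0.0197), and Stmn1, stathmin 1, which averaged -0.81 ± 1.93 in hippocampus Sox2-GFP and 3.65 ± 0.33 in DCX-DsRed cells (difference -4.46, adjusted p = 0.0399). Leaving out 1 array gave 0.0132 to 0.0893 for Dclk1, called in 5 of 9 fits, and 0.0313 to 0.132 for Stmn1, called in 3 of 9.

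**Figure D4:**
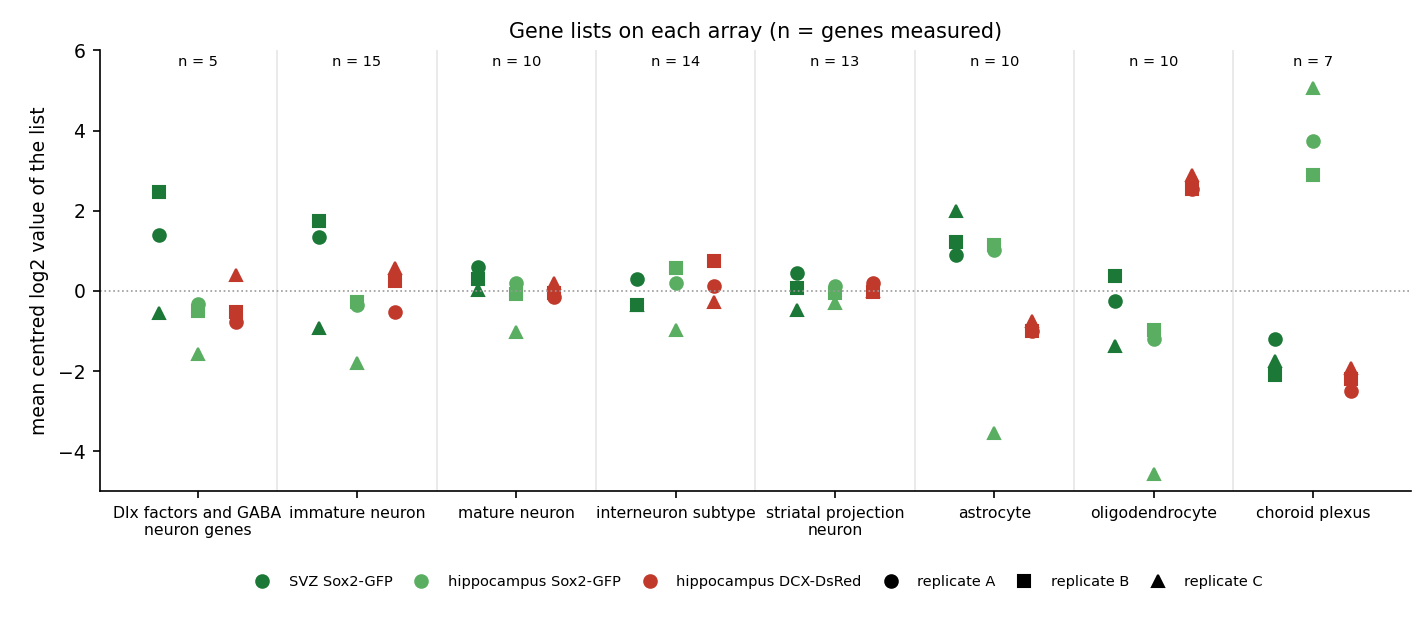
Mean over the genes of each list of the log2 value centred on its own mean over the 9 arrays (vertical axis), for each array, with the number of genes measured above; within each list the groups run SVZ Sox2-GFP, hippocampus Sox2-GFP and hippocampus DCX-DsRed from left to right. The Dlx and GABA genes (1.40, 2.48 and -0.56 on the SVZ arrays A, B and C) and the immature neuron markers (1.34, 1.75 and -0.92) have a like order over the SVZ arrays. So do the oligodendrocyte markers (-0.25, 0.37 and -1.37).

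Other cell types varied between the groups as well. The mean centred level of 10 astrocyte markers was 0.89, 1.22 and 2.00 in SVZ, 1.01, 1.14 and -3.54 in hippocampus Sox2-GFP and -0.99, -0.99 and -0.74 in DCX-DsRed replicates, so that SVZ replicate C was the highest array for astrocyte markers and low for the members. The 10 oligodendrocyte markers stood at -0.25, 0.37 and -1.37 in SVZ and -1.19, -0.98 and -4.56 in hippocampus Sox2-GFP, against 2.53, 2.54 and 2.90 in DCX-DsRed replicates. Of mature neuron, oligodendrocyte precursor and microglia markers, 0 were called in any comparison, of 10 mature neuron, 8 precursor and 8 microglia markers tested. Of the 7 choroid plexus markers tested, 3 fell in SVZ relative to hippocampus Sox2-GFP cells and 5 rose in hippocampus Sox2-GFP relative to DCX-DsRed cells. Of the 10 oligodendrocyte markers, 2 fell in SVZ Sox2-GFP and 6 fell in hippocampus Sox2-GFP relative to DCX-DsRed cells, and of the 10 astrocyte markers 0 were called. Of the 7 ependymal markers tested, 1 rose in SVZ Sox2-GFP and 5 rose in hippocampus Sox2-GFP relative to DCX-DsRed cells, and of the 8 endothelial and mural markers 1 and 2 rose. The part of these cell types in the member values was not tested.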

How the data were processed

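The deposited files were the scanner output of 9 one-colour arrays. Per the file headers, spot intensities were extracted with Agilent Feature Extraction 9.5.1.1 (protocol GE1-v5_95_Feb07), and the processed signal is an intensity after background subtraction, with no scaling across arrays. Columns of 0 and 1 in the deposited files, per the file headers, flag outlier and saturated spots and those well above background. Limma is named in the submitters' processing notes, without a version.

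Control spots (43379 non-control spots remained per array) and outlier-flagged spots were left out, spots of a probe were averaged, and each array's 75th percentile was subtracted after taking log2 of the signal. Because 1 file held 47 altered gene names, names were read by probe from another file, and 6 probes with too few unflagged values were dropped. A probe needed 3 of 9 arrays well above background, and a gene was represented by its brightest probe on average.

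The fit used limma 3.58.1 (lmFit, eBayes; R 4.3.3) on all 9 arrays, with Benjamini-Hochberg adjustment over 25064 genes and a threshold of 0.05, and the code was tested on simulated data. Genes named are the members, Sox2 and Dcx, up to 3 called genes of each list or the one with the smallest p, and 7 of the 8 nearest profiles (the other is not reported here); 6330404F12Rik and the second Dlx6os1 probe were added after their values were seen. The members and lists were chosen with earlier results of these data known. The number of arrays limits the precision. The labels do not say whether replicate letters pair the samples. In deviations from the group means, 1 of 9 same-letter pairs correlated above 0.1, which does not settle it, and a replicate block is given as an alternative. Alternatives are given in the closing section.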

Additional observations from a re-analysis of the deposited data

How the results depend on the processing

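None of the 5 tested members was called in any of 22 alternatives to each of the 3 comparisons (background correction, scaling, filter, probe choice, groups fitted, slide or replicate block, arrays left out). Sp8, outside the main filter, was called between SVZ Sox2-GFP and DCX-DsRed cells with no filter and without SVZ replicate C together (adjusted p = 0.0487). That setting is not among the 22 and was chosen after the Sp8 values were seen. With no filter and all arrays the adjusted p of Sp8 was 0.303, and its hippocampal signals were not well above background. Of the differences of the 5 tested members under the 22 alternatives, 327 kept their sign and 3 turned. Slc32a1 turned between the hippocampal groups with slide as a block (-0.45) and without DCX-DsRed replicate B (-0.012, with -0.012 to 0.32 over arrays left out). Gad1 turned there without DCX-DsRed replicate C (0.29, with -1.91 to 0.29 over arrays left out). Dlx1 between SVZ Sox2-GFP and DCX-DsRed cells fell to 0.01 without SVZ replicate A. The cause of these was not tested.

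The number of genes called over all genes moved more. Between SVZ and hippocampus Sox2-GFP cells it was 99, with 157 under normexp background correction, 174 with the mean of all probes, 165 with every probe tested (chosen after seeing the data), 8 with only those 2 groups fitted, 2171 with slide as a block and 13 with the replicate block. Between SVZ Sox2-GFP and DCX-DsRed cells it was 390, with 808 with slide as a block and 187 with the replicate block. Between the hippocampal groups it was 797, with 2046 and 493. Leaving out 1 array gave 24 to 102, 50 to 860 and 252 to 787 in the 3 comparisons, with the lowest counts without hippocampus Sox2-GFP replicate A in the first and without DCX-DsRed replicate A in the others. Whether the replicate letters pair the arrays is not stated in the labels (3 of 9 arrays correlated best with their own letter), and the replicate block called 0 members.

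With 3 arrays a group, the spread between SVZ replicates limits the precision. Dlx2 and Sp8 were not well above background in the hippocampal groups, so the sizes of their differences are not measured. Dlx6 and Sp9 were not analysed here.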
